A study of Nicotiana tabacum with 15 samples.

Results

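A set of 93 genes, of 69500 in the deposited table, was set apart in Jiucaiping No.2 (J), the father shared by both F1 hybrids of tobacco (Nicotiana tabacum) in this study. The genes were selected on the FPKM values of the parents. A gene was taken when all 3 J libraries lay above, or all 3 below, the 6 libraries of the mothers G70 (G) and K326 (K), and when the J mean of log2(FPKM + 1) was at least 1 away, in the same direction, from the G mean and from the K mean. FPKM is the number of sequenced fragments scaled to gene length and to the size of the library, and the 1 that is added keeps genes at 0 on the log scale. J was the higher parent for 34 of them and the lower for 59. By the same rule 250 genes (116 higher and 134 lower) were set apart in G and 136 (66 and 70) in K. The rule left out 5 blocks of gene IDs, which held 24 further genes lower and 0 higher in J. The libraries came from young roots of seedlings of GJ (G70 × Jiucaiping No.2), KJ (K326 × Jiucaiping No.2), J, G and K, with 3 libraries for each of the 5 genotypes. Each mother is thus the parent of 1 hybrid, all genotypes were grown without a treatment difference, and the comparison asks how the father's distinct expression level was passed to the hybrids. Tissue is given as young root in the sample characteristics and in the study's methods but as leaf in the sample titles, and it could not be checked by markers, because no table used here pairs these gene IDs with names.

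An F1 hybrid receives a set of chromosomes from each parent. Expression midway between the parents is called additive, a level like that of either parent is called dominant, and a level beyond both is called overdominant. Cultivated tobacco is an allotetraploid whose genome joins those of a pair of ancestral species, so many genes exist as near-identical copies. The study quantified genes by RSEM, and the submitters' notes also name StringTie. The division of reads that fit more than 1 copy is not described further in the sources used here. The value of a single gene ID is therefore uncertain where such copies exist.

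Summed FPKM ran from 801594 to 827438 per library, read numbers per gene are not among the values used here, and the depth behind a single value is therefore unknown. Whether a library was 1 plant or a pool is not given in the sources used here, and the p-values therefore reflect variation among libraries only. Across all tested genes the median difference was 0.14 for GJ minus KJ, -0.26 for KJ minus K and -0.22 for KJ minus J on the log2 scale, against -0.06 for GJ minus G and -0.07 for GJ minus J, so KJ values of a typical gene were somewhat lower. The libraries G replicate 1, J replicate 2 and K replicate 2 deviated from their genotype means together, with correlations across genes of 0.546 to 0.595 for the 3 pairs among them and -0.54 to 0.36 for the other 24 pairs of libraries from different parents. With these 3 libraries left out the rule gave 250 genes, 131 of them lower in J, and these 250 held 29 of the 34 higher and 49 of the 59 lower genes. Leaving out a library makes the condition of no overlap easier to meet, so a rise is partly set by the rule. Its cause was not tested. Single libraries also moved the number, which ran from 96 to 193 with each parental library left out in turn. It was 193 (102 higher and 91 lower) without J replicate 2 and 157 (47 and 110) without J replicate 1, and 57 genes were higher without K replicate 2.

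The heat map of the 93 genes shows that the parental contrast, which the rule fixed, was carried into the hybrids unequally. Genes lower in J were farther from the mothers than genes higher in J. The J mean lay a median of 1.53 from the nearer mother in genes lower in J, with a maximum of 4.99 and 16 genes at 2 or more, and a median of 1.23 in genes higher in J, with a maximum of 3.06 and 3 genes at 2 or more. The median of the mean FPKM in genes lower in J was 3.02 in GJ, 4.18 in KJ, 0.7 in J, 5.24 in G and 5.04 in K. In genes higher in J it was 7.81 in GJ, 3.42 in KJ, 17.1 in J, 5.58 in G and 5.48 in K. Because these values chose the genes, they are a description and no test was made of them. Just inside the limit of 1 were Nitab4.5_0000143g0120 and Nitab4.5_0001863g0050 among higher genes (both 1.01) and Nitab4.5_0010827g0020 (1.00) and Nitab4.5_0002374g0020 (1.02) among lower genes. Just outside it were Nitab4.5_0006193g0010 and Nitab4.5_0000174g0170 (both 0.99), and Nitab4.5_0002579g0020 (0.998) and Nitab4.5_0001567g0120 (0.99). Without the distance limit 544 genes lay above and 849 below in every J library. Of the 9 genes that the study's text names by ID, 0 were among the 93.

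**Figure D1:**
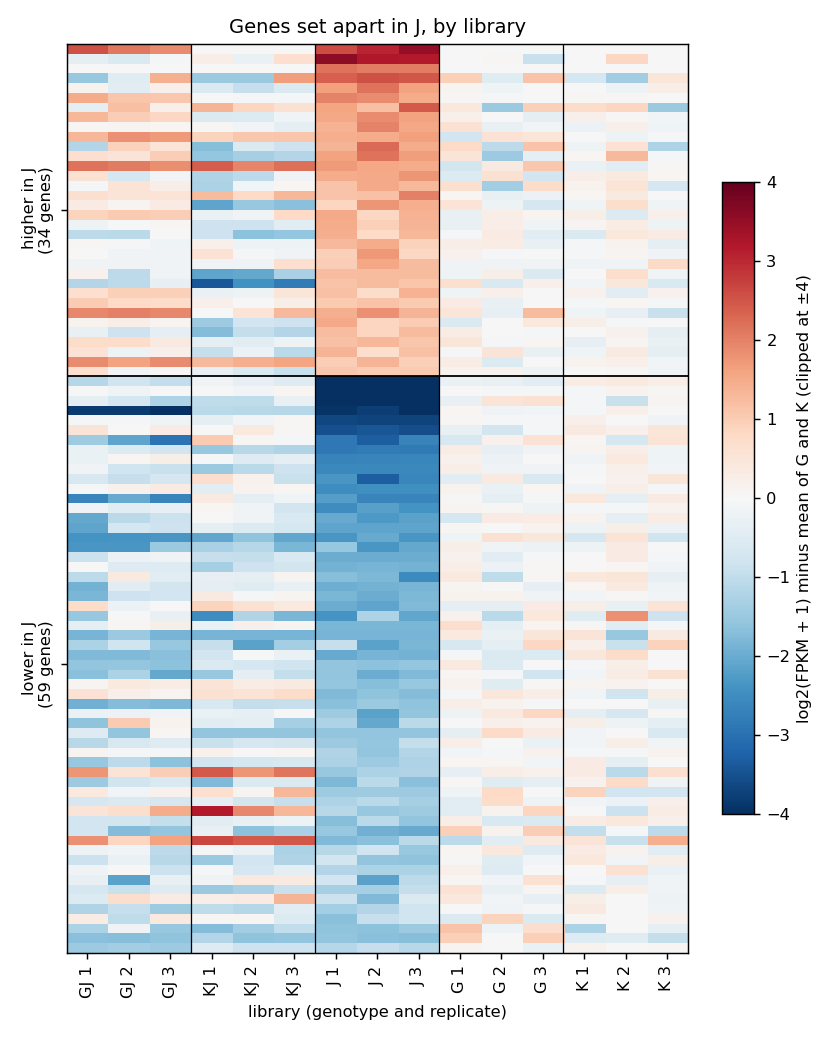
Heat map of the 93 genes (rows, ordered by distance) in the 15 libraries (columns). Colour is log2(FPKM + 1) minus the mean of G and K, clipped at 4 either way. The J columns are red for the 34 upper rows and blue for the 59 lower rows by the choice of genes, whereas the GJ and KJ columns are mostly pale in the upper rows and range from pale to blue in the lower rows.

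Transcripts of 3 genes were found in J and were near 0 in both mothers, that is, at 1 FPKM or more in every J library and under 0.5 in every G and K library. Of these, GJ carried 2 and KJ carried 0. Nitab4.5_0014353g0010 was at 4.82, 3.36 and 2.74 FPKM in GJ, listed at 0 in all 3 KJ libraries, and at 5.15, 7.27 and 10.41 in J, with all 6 libraries of G and K listed at 0. Its GJ mean was 47.8% of the J mean, and no GJ library reached the lowest J library. Nitab4.5_0004810g0030 was at 2.03, 1.32 and 1.31 FPKM in GJ, at 0.07, 0.02 and 0.04 in KJ and at 3.26, 3.01 and 2.06 in J, while the mothers lay between 0.03 and 0.13. Here too the GJ mean was near the middle, at 55.9% of the J mean, and every KJ library was at 0.07 or less. Nitab4.5_0001991g0070 was at 3.50, 3.15 and 3.17 FPKM in J and listed at 0 in every library of GJ, KJ, G and K, although J is the father of both hybrids. RNA alone cannot tell a silent gene from a missing one, and the seed lots or plants behind the libraries were not compared.

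The opposite class was larger. All reads were aligned to the genome of K326, itself a mother, so a gene absent from that genome could not be listed. Whether this bears on the sizes of these classes, or on the larger number of genes lower in J, was not tested. In 15 genes every J library was under 0.5 FPKM and every G and K library at 1 or more. Most were present in the hybrids. Every library reached 1 FPKM for 9 of the 15 genes in GJ and for 12 in KJ, and all 3 libraries were under 0.5 for 3 genes in GJ and 0 in KJ. The hybrid mean, as a share of the mother's mean, ran from 1.28% to 103% in GJ with a median of 62.5%, and from 13.5% to 119.2% in KJ with a median of 62.4%.

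The outcomes differed between genes of this class. Libraries of both hybrids overlapped the mother's and not J's in 4 of the 15 genes, those of GJ alone did so in 4 others with KJ between the parents, and both hybrids lay between the parents without overlap in 2. In the remaining 5 GJ overlapped J or lay below it. Nitab4.5_0001567g0110 was at 31.31, 27.58 and 31.35 FPKM in GJ, 30.26, 28.67 and 32.67 in KJ, 0, 0.04 and 0.03 in J, 30.32, 29.35 and 30.09 in G and 30.14, 33.92 and 31.59 in K. The hybrid means were 100.5% of the mother in GJ and 95.8% in KJ, and their libraries overlapped the mother's. Nitab4.5_0001651g0030 was alike, with 95.6% in GJ and 88.1% in KJ of the mother's 12.1 ± 0.58 FPKM in G and 12.7 ± 1.57 in K (SD, n = 3 each). Nitab4.5_0000464g0060, with both hybrids between the parents, was at 17.74, 22.70 and 20.03 FPKM in GJ, 36.80, 32.32 and 28.27 in KJ, 0.04, 0.08 and 0.02 in J, 33.48, 32.95 and 30.27 in G and 49.93, 53.63 and 49.36 in K. Both hybrids stood at a similar share of their own mother, 62.5% in GJ and 63.7% in KJ, without overlap with either parent.

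In some genes of this same class GJ was low, as J was, while KJ was higher. Nitab4.5_0009544g0010 was at 0, 0.56 and 0 FPKM in GJ and 7.12, 3.87 and 4.62 in KJ, against 0.37, 0 and 0 in J, 5.55, 3.95 and 4.98 in G and 7.37, 3.84 and 6.89 in K. Its GJ mean was 3.87% of G, and its KJ mean was 86.2% of K. Nitab4.5_0008232g0050 was at 0.03, 0.05 and 0 FPKM in GJ and 1.06, 0.88 and 0.80 in KJ, which is 1.28% of G and 41.0% of K. Nitab4.5_0000525g0060 was at 14.2% of G in GJ and 51.6% of K in KJ. It is among the genes counted above in which both hybrids lay between the parents without overlap. In others the libraries of GJ disagreed. Nitab4.5_0008050g0070 was listed at 0 in GJ replicate 1 and at 1.66 and 1.45 FPKM in the other GJ libraries, and Nitab4.5_0023224g0010 was at 0.09 in GJ replicate 1 and at 2.02 and 1.41 in the others. In KJ these 2 genes were between 1.65 and 2.36 FPKM in every library. Nitab4.5_0008232g0050, Nitab4.5_0008050g0070 and Nitab4.5_0023224g0010 were picked for the text after their values were seen.

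**Figure D2:**
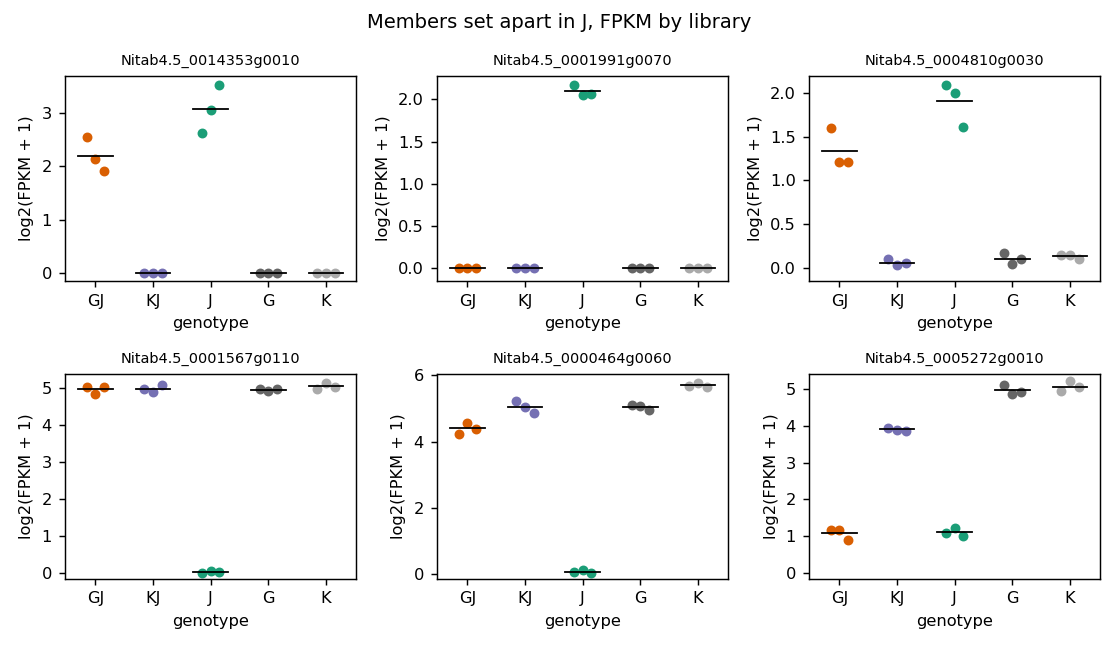
Log2(FPKM + 1) of 6 genes by genotype, with a point for each library and a line at the mean of 3. Nitab4.5_0014353g0010 and Nitab4.5_0004810g0030 are present in GJ and near 0 in KJ, Nitab4.5_0001991g0070 is at 0 outside J, Nitab4.5_0001567g0110 keeps the mothers' level in both hybrids, Nitab4.5_0000464g0060 is lower than the mother in both, and Nitab4.5_0005272g0010 is at the J level in GJ but not in KJ.

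Among genes higher in J that were also measured in the mothers, the largest distances were of Nitab4.5_0013316g0010, Nitab4.5_0002221g0040 and Nitab4.5_0002535g0030, and in none of them did a hybrid library reach J. Nitab4.5_0013316g0010 was at 1.92, 1.51 and 2.65 FPKM in GJ and 3.45, 2.09 and 4.91 in KJ, against 43.90, 33.72 and 32.48 in J, 2.74, 2.83 and 1.01 in G and 2.81, 5.59 and 2.76 in K. Both hybrids overlapped their mother and stayed far below the father. Nitab4.5_0002535g0030 averaged 1.81 ± 0.65 FPKM in GJ and 0.77 ± 0.23 in KJ, against 9.08 ± 2.24 in J, 1.80 ± 0.28 in G and 1.91 ± 0.48 in K (SD, n = 3 each). Nitab4.5_0002221g0040 varied widely within hybrids, at 0.02, 1.12 and 6.88 FPKM in GJ and 0.06, 0.04 and 8.47 in KJ, against 14.44, 16.33 and 15.39 in J. Replicate 3 was the high library in both hybrids.

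A few genes higher in J went the other way, to the father's level or above it. Nitab4.5_0007204g0020 was at 46.18, 43.99 and 37.58 FPKM in GJ and 55.41, 40.01 and 47.32 in KJ, against 33.74, 29.68 and 28.71 in J, and at 5.32 to 21.13 in the mothers. All 6 hybrid libraries lay above all 3 J libraries. Nitab4.5_0001863g0050 was at 18.58, 15.03 and 18.43 FPKM in GJ and 11.86, 13.42 and 14.76 in KJ, against 9.40, 12.46 and 9.15 in J. Nitab4.5_0011634g0010, among the 3 most abundant of the 93 genes, was at 173.16, 184.81 and 171.18 FPKM in GJ and 45.08, 65.65 and 111.70 in KJ, against 123.49, 160.15 and 116.71 in J, 62.77, 35.23 and 108.06 in G and 39.53, 35.22 and 23.43 in K. Every GJ library was above J, whereas KJ lay between J and K without overlap. Nitab4.5_0007204g0020 was picked after its values were seen.

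Among genes lower in J, Nitab4.5_0009459g0010 was the most abundant of the 93. It was at 501.09, 356.37 and 438.67 FPKM in GJ and 345.46, 459.45 and 360.13 in KJ, against 30.16, 31.67 and 29.33 in J, 289.52, 210.90 and 343.27 in G and 450.75, 407.96 and 495.78 in K. The low level of J appeared in neither hybrid, and every GJ library was above every G library. Nitab4.5_0011970g0010 averaged 49.4 ± 14.9 FPKM in GJ and 48.8 ± 14.8 in KJ, against 2.98 ± 0.73 in J, 103.7 ± 32.1 in G and 70.04 ± 23.6 in K (SD, n = 3 each), with GJ below G and above J without overlap and KJ overlapping K. Nitab4.5_0005272g0010 divided the hybrids. It was at 1.25, 1.25 and 0.86 FPKM in GJ and 14.37, 13.81 and 13.58 in KJ, against 1.13, 1.35 and 1.01 in J, 33.18, 28.28 and 29.09 in G and 29.66, 35.74 and 31.89 in K. GJ stood at 3.71% of G, within the range of J, and KJ at 42.9% of K.

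To place all 93 genes on a common scale, the position of a hybrid was taken as its distance from the mother divided by the distance of J from the mother, so that 0 is the mother, 1 is J and 0.5 is the additive value on the scale used. On linear FPKM the median position in genes higher in J was 0.0892 in GJ and -0.025 in KJ, and in genes lower in J it was 0.539 in GJ and 0.376 in KJ. Positions of genes higher in J lay within 0.25 of the mother for 18 of 34 genes in GJ and 17 in KJ, under -0.25 for 3 in GJ and 11 in KJ, and over 0.25 for 13 in GJ and 6 in KJ. In genes lower in J, 40 of 59 were over 0.25 in GJ and 36 in KJ. Among the 34 genes higher in J, 12 lay below the mother in GJ and 20 in KJ, and 4 lay beyond J in GJ and 2 in KJ. Among the 59 genes lower in J, a position under 0 was found for 12 genes in GJ and 14 in KJ, and a position over 1 for 9 genes in GJ and 1 in KJ, with 2 more genes in KJ at 1. On the log2 scale the medians were 0.17 in GJ and -0.04 in KJ for genes higher in J, and 0.40 in GJ and 0.29 in KJ for genes lower in J. With median-of-ratios scaling of the libraries, an alternative added after the data were examined, the median of KJ on linear FPKM was -0.0005 for genes higher in J and 0.21 for genes lower in J, with 17 and 23 genes below 0. The parental means enter both the choice of genes and the position, so the position is not independent of that choice.

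**Figure D3:**
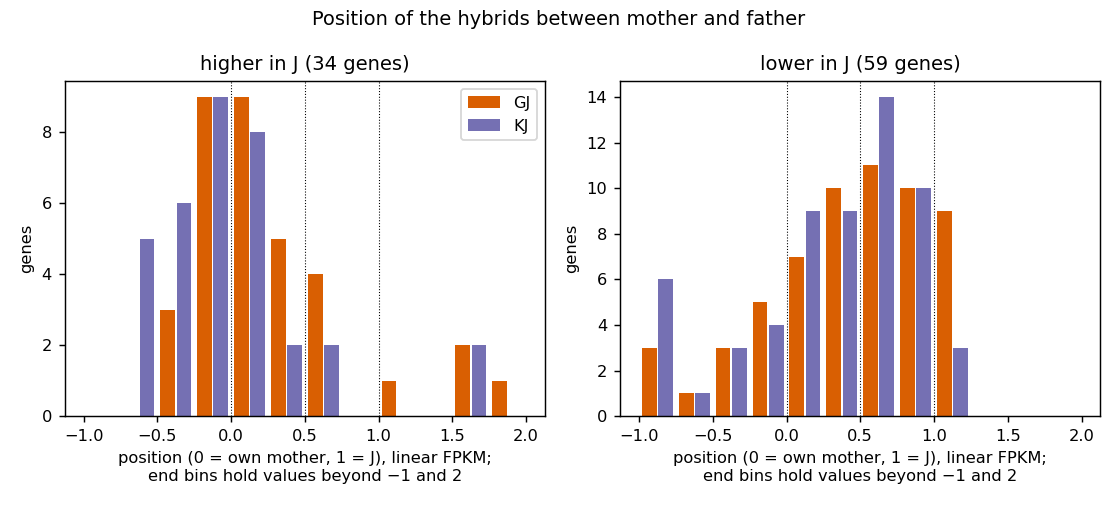
Number of genes (vertical axis) by the position of GJ and KJ between own mother (0) and J (1) on linear FPKM (horizontal axis), with end bins holding values beyond the axis. The 34 genes higher in J (left) peak around the mother, with medians of 0.0892 in GJ and -0.025 in KJ, and the 59 genes lower in J (right) have medians of 0.539 and 0.376.

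Whether the libraries of a hybrid and a parent overlapped gave a view that needs no position. Among the 34 genes higher in J, every GJ library lay above every G library in 12 (background 13.2% of all tested genes) and below in 1 (background 18.6%), and every KJ library lay above every K library in 5 (background 11.7%) and below in 12 (background 40.8%). Against the father, GJ lay wholly below J in 28 of the 34 (background 26.2%) and above in 3 (background 16.7%), and KJ wholly below in 30 (background 40%) and above in 1 (background 15%). Among the 59 genes lower in J, GJ lay wholly below G in 29 and above in 3, and KJ wholly below K in 29 (49.2%, background 40.8%) and above in 6. GJ lay wholly above J in 30 of the 59 and below in 3, and KJ in 44 and 0. No overlap with either parent, and a place between them, was seen in 6 of the 34 and 7 of the 59 genes in GJ and in 2 and 17 genes in KJ. The share of all tested genes with such a place was not counted. The rule chose genes with a wide gap between the parents, so nothing is read from these numbers.

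Tests of the hybrids against their parents were fitted with limma over all 37232 genes that reached 1 FPKM in at least 3 libraries, and calls needed an adjusted p (Benjamini-Hochberg) no larger than 0.05 with a log2 difference of 1 or more. Of the 93 genes 92 passed this filter, 33 higher and 59 lower in J, and Nitab4.5_0007834g0040 did not. Some of them passed only through the genotypes in which they were expressed. The rule's own contrasts were called for 22 of 33 genes higher and 45 of 59 lower in J than in G, where 0.478% and 0.465% of all tested genes were called in these directions, and for 18 and 40 against K, with 0.137% and 0.279%. Nothing is read from these counts. Against the mother, GJ was called higher for 7 of the 33 genes higher in J (background 2.39%) and lower for 19 of the 59 genes lower in J (background 2.44%), with 0 and 1 called away from J. KJ was called higher than K for 4 of 33 (background 3.19%) and lower for 13 of 59 (background 6.08%), but also lower for 7 of the 33 and higher for 3 of the 59. Against the father, GJ was called lower for 13 of 33 (background 1.76%) and higher for 24 of 59 (background 1.96%), and KJ lower for 26 of 33 (background 7.28%) and higher for 34 of 59 (background 4.80%). In each hybrid the 2 comparisons share its libraries, and the parental values that chose the genes partly set the direction of these counts, so they are a description.

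Against the middle parent, which is the log2-scale average of mother and J, the hybrids were compared as a description only. The middle parent holds the J and mother values that chose the genes, so the direction of a departure is partly set by that choice and nothing is read from the counts. In GJ, 5 of 33 genes higher in J were called below the middle parent (background 2.16%) and 2 above it (background 2.40%), and 13 of 59 genes lower in J were called above it and 6 below. In KJ, 17 of 33 genes higher in J were called below the middle parent (background 6.61%) and 1 above it (background 4.18%), and 19 of 59 genes lower in J were called above it and 0 below. The single call toward J in KJ became 2 without K replicate 2 and 3 without J replicate 2, G replicate 1 and K replicate 2. Median differences in KJ were -1.09 for genes higher in J and 0.42 for genes lower in J, beside -0.24 over all tested genes, and in GJ they were -0.37 and 0.12, beside -0.06.

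The largest departures are given without a test for the same reason. In GJ, Nitab4.5_0001567g0110, which was at the mother's level, was 2.46 above the middle parent (SE 0.08). Nitab4.5_0002055g0020 lay above both parents in both hybrids, at 138.90, 70.34 and 120.46 FPKM in GJ and 250.35, 214.49 and 220.71 in KJ, against 10.62, 11.43 and 17.81 in J, 17.98, 28.41 and 50.31 in G and 55.33, 20.53 and 108.15 in K. Its difference from the middle parent was 2.37 in GJ (SE 0.43) and 3.10 in KJ (SE 0.43). Nitab4.5_0000039g0060 was 2.91 above the middle parent in KJ (SE 0.40), at 36.48, 14.77 and 9.34 FPKM in KJ, against 0.93, 0.46 and 0.55 in J and 3.09, 1.31 and 4.12 in K. All 3 KJ libraries exceeded both parents, with a wide spread among them.

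The largest differences below the middle parent were of Nitab4.5_0005272g0010 (-1.96, SE 0.10) and Nitab4.5_0013316g0010 (-1.84, SE 0.27) in GJ. In KJ they were of Nitab4.5_0006203g0020 (-3.41, SE 0.31) and Nitab4.5_0000601g0040 (-2.53, SE 0.29). Nitab4.5_0006203g0020 was at 6.21, 6.80 and 11.95 FPKM in GJ and 0.54, 2.05 and 1.31 in KJ, against 34.86, 37.91 and 33.80 in J, 24.57, 9.66 and 17.72 in G and 13.92, 21.33 and 9.68 in K. Every KJ library of this gene lay below both parents. Nitab4.5_0000601g0040 did likewise, at 9.45, 10.02 and 17.70 FPKM in KJ, against 106.71, 108.70 and 108.02 in J and 43.83, 73.31 and 38.99 in K, whereas in GJ it was at 50.58, 21.03 and 40.61, overlapping the 39.26, 52.99 and 29.52 of G.

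Both hybrids have the father in common, and the rule used no hybrid library, so the size of GJ minus KJ was not chosen. Its p-value is not free of the choice, because the spread was estimated over all 15 libraries, those of the parents included. GJ minus KJ was called for 10 of the 92 tested genes (10.9%), against 0.438% of all tested genes. The 5 called genes higher in J were all higher in GJ (5 of 33, 15.2%, background 0.247%), and the 5 called genes lower in J were all lower in GJ (5 of 59, 8.47%, background 0.191%). In all 10, GJ was therefore on the side of the father relative to KJ. This places GJ against KJ and not against its own mother. In Nitab4.5_0000662g0230, Nitab4.5_0000143g0290 and Nitab4.5_0006203g0020 every KJ library was below every K library. With the spread estimated from the 6 hybrid libraries only, an alternative added after the data were examined, 4 genes higher in J were called higher in GJ (background 0.0779%) and 2 genes lower in J were called lower in GJ (background 0.113%). Nitab4.5_0014353g0010, Nitab4.5_0004810g0030, Nitab4.5_0000143g0290, Nitab4.5_0005272g0010 and Nitab4.5_0009544g0010 were called in both fits, and Nitab4.5_0000143g0300 in the hybrid fit alone. The median difference was 0.74 for genes higher in J and -0.17 for genes lower in J, beside 0.14 over all tested genes. The number called fell to 3 among genes higher in J without KJ replicate 1 or without KJ replicate 3, and to 3 among genes lower in J without KJ replicate 1, KJ replicate 3 or GJ replicate 3. With J replicate 2, G replicate 1 and K replicate 2 all left out, 8 genes higher in J were called. In an interaction test of whether the departures of GJ and KJ from their middle parents differ, 5 genes higher in J (background 0.344%) and 5 lower in J (background 0.164%) were called, each with the departure of GJ more toward J. The J mean cancels in this contrast, which leaves GJ minus KJ and the means of G and K that the rule used. These calls are therefore not separate from those of GJ minus KJ, and nothing further is read from them.

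Of the 5 genes that were higher in GJ, Nitab4.5_0014353g0010 and Nitab4.5_0004810g0030 were near 0 in KJ, and the difference was 2.19 (SE 0.20, limma adjusted p = 0.000147) and 1.28 (SE 0.16, limma adjusted p = 0.00196). Nitab4.5_0000662g0230 was at 8.94, 6.81 and 6.13 FPKM in GJ and 1.66, 1.75 and 2.64 in KJ, against 10.74, 13.88 and 11.17 in J, with a difference of 1.46 (SE 0.19, limma adjusted p = 0.00337). GJ lay between the parents, at 61.1% of J, and KJ below all K libraries, which ran from 2.73 to 3.57. Nitab4.5_0000143g0290 was at 23.15, 19.64 and 23.01 FPKM in GJ and 3.43, 5.75 and 5.01 in KJ, a difference of 2.02 (SE 0.33, limma adjusted p = 0.0167). Nitab4.5_0006203g0020 was likewise 2.02 higher (SE 0.36, limma adjusted p = 0.0256), although both hybrids were below J. Its GJ mean was also below the mother, at 48.0% of G. With the hybrid libraries only, the adjusted p in limma was 0.051 for Nitab4.5_0000662g0230 and 0.0852 for Nitab4.5_0006203g0020. The calls of Nitab4.5_0000143g0290 and Nitab4.5_0006203g0020 were lost without any of GJ replicate 2, GJ replicate 3, KJ replicate 1 or KJ replicate 3, where the adjusted p in limma ran up to 0.103 and 0.137.

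Of the 5 genes that were lower in GJ, Nitab4.5_0005272g0010 had the largest difference, -2.82 (SE 0.12, limma adjusted p = 2.68e-08), followed by Nitab4.5_0003586g0030 with -2.50 (SE 0.45, limma adjusted p = 0.0279) and Nitab4.5_0009544g0010 with -2.38 (SE 0.26, limma adjusted p = 0.00083). Nitab4.5_0003586g0030 was at 3.83, 2.01 and 0.67 FPKM in GJ and 25.66, 12.37 and 11.40 in KJ, against 0.76, 0.31 and 1.03 in J, 7.26, 13.40 and 18.05 in G and 12.70, 6.83 and 17.83 in K. GJ overlapped J and KJ overlapped K. Nitab4.5_0000525g0060 (-1.39, SE 0.22, limma adjusted p = 0.014) and Nitab4.5_0000073g0340 (-1.27, SE 0.23, limma adjusted p = 0.0277) had smaller differences. Nitab4.5_0000073g0340 was at 6.74, 14.56 and 15.10 FPKM in GJ and 34.15, 24.93 and 28.69 in KJ, against 6.78, 6.04 and 6.98 in J. Without GJ replicate 1 its difference was -0.92. With the hybrid libraries only, the adjusted p in limma was 0.0977 for Nitab4.5_0003586g0030, 0.0697 for Nitab4.5_0000525g0060 and 0.121 for Nitab4.5_0000073g0340. The call of Nitab4.5_0003586g0030 was lost without each of the hybrid libraries except GJ replicate 1, that of Nitab4.5_0000525g0060 without GJ replicate 2 or 3 or KJ replicate 2 or 3, and that of Nitab4.5_0000073g0340 also without KJ replicate 1 or 3.

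**Figure D4:**
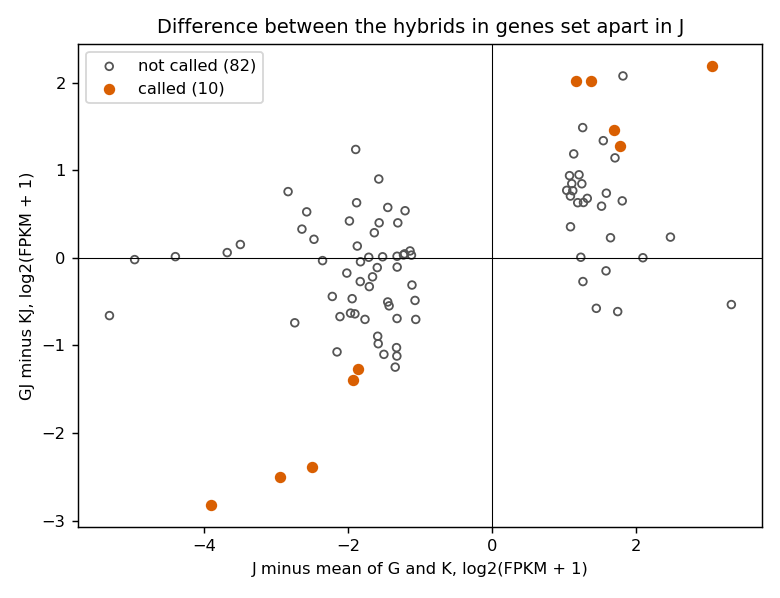
GJ minus KJ (vertical axis) against J minus the mean of G and K (horizontal axis), both as differences of log2(FPKM + 1), for the 92 tested genes. Filled points are the 10 genes called between the hybrids, 5 at upper right and 5 at lower left, and most of the 82 open points lie within 1 of the horizontal line at 0.

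Library overlap between the hybrids was also counted, which uses no parental library. Every GJ library lay above every KJ library in 21 of the 34 genes higher in J (61.8%), against 23.8% of all tested genes, and below in 1. In genes lower in J every GJ library lay below every KJ library in 16 of 59 (27.1%), against 7.28%, and above in 3. Of the genes not called, GJ lay wholly above KJ in 16 of 29 higher in J and wholly below it in 1, and in genes lower in J it lay below in 11 of 54 and above in 3, with overlap in 40. The 29 include Nitab4.5_0007834g0040, which did not pass the filter and was not tested. With median-of-ratios scaling, which raises the KJ values, the counts in these directions became 15 (44.1%, against 12.3%) and 21 (35.6%, against 13.8%). The 8 members of the ID block described next were among the 21. Without them the share was 13 of 26 (50.0%, against 23.8%), and with median-of-ratios scaling it was 9 of 26 (34.6%, against 12.3%).

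Gene IDs in this table consist of a block number and a gene number within the block. No positions were at hand, so a shared block number is reported as that and not as a distance. The 93 genes fell in 78 blocks, of which 6 held 2 or more and 21 genes in all. Block Nitab4.5_0000143 held 8, all higher in J, and blocks Nitab4.5_0000525, Nitab4.5_0001328 and Nitab4.5_0001567 held 3 each, all lower in J.

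Of block Nitab4.5_0000143 the table lists 61 genes, of which 42 were tested. Its 8 members were Nitab4.5_0000143g0040, g0050, g0080, g0120, g0250, g0290, g0300 and g0310. Nitab4.5_0000143g0300, the second most abundant gene of the 93 after Nitab4.5_0009459g0010, was at 198.73, 179.30 and 247.59 FPKM in GJ and 41.81, 48.87 and 55.04 in KJ, against 382.02, 568.92 and 396.82 in J, 177.32, 45.07 and 95.94 in G and 130.47, 306.03 and 121.21 in K. GJ lay between its parents and KJ below both of its own, and GJ minus KJ was 2.08 (SE 0.43, limma adjusted p = 0.0505), which missed the threshold. Nitab4.5_0000143g0310 was at 32.49, 28.02 and 26.46 FPKM in GJ and 18.07, 15.40 and 18.73 in KJ, against 33.77, 36.09 and 33.61 in J, 19.73, 12.71 and 15.67 in G and 15.17, 16.55 and 15.02 in K. Here GJ stood at 84.1% of J and KJ at the level of K, with GJ minus KJ at 0.70 (SE 0.14, limma adjusted p = 0.0441), under the limit of 1. The same direction was seen in all 8 members, whose GJ minus KJ ran from 0.70 to 2.08 with no overlap between the hybrids' libraries.

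Among the 34 tested genes of the block that were not members, every GJ library lay above every KJ library in 27 and below in 0, and the GJ mean was under the KJ mean in 2. Over the whole block every GJ library lay above every KJ library in 35 of the 42 tested genes (83.3%, against 23.8% of all tested genes), and with median-of-ratios scaling in 28 (66.7%, against 12.3%). Called between the hybrids were 4 genes higher in GJ (background 0.247%) and 0 lower (background 0.191%). Every J library lay above every G and K library in 21 of the 42, the 8 members included, which the rule chose for this, so nothing is read from that count beside the 1.11% of all tested genes.

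Along the gene numbers the block fell into 2 stretches, which were chosen after the values were seen and are given with no test. In the 27 tested genes from Nitab4.5_0000143g0040 to Nitab4.5_0000143g0360, all J libraries were above all G and K libraries in 20, and the median difference was 0.43 for GJ minus G, -0.31 for GJ minus J, -0.31 for KJ minus K and -1.12 for KJ minus J, beside 0.92 for J minus G and 0.90 for J minus K. By these medians GJ lay between its parents there and KJ below its mother, beside -0.26 for KJ minus K over all tested genes. The GJ mean was above G in 26 of the 27 genes and above J in 2, and the KJ mean was above K in 9. In the 15 tested genes from Nitab4.5_0000143g0370 to Nitab4.5_0000143g0580 the parents were alike, with medians of 0.17 for J minus G and 0.02 for J minus K and all J libraries above the mothers in 1 gene. The median gene was nevertheless higher in GJ than in both parents, at 0.81 for GJ minus G and 0.56 for GJ minus J. The GJ mean was above G in 13 of the 15 genes and above J in 11. Every GJ library was above every G library in 9 genes, above every J library in 7 and above every KJ library in 13. The medians of KJ were -0.27 for KJ minus K and -0.28 for KJ minus J, near the median over all tested genes. GJ minus KJ was therefore alike in both stretches, with medians of 0.70 and 0.72, although by the medians J stood apart from the mothers only in the first. In the second, Nitab4.5_0000143g0390 did differ, with 0.87 for J minus G and 1.03 for J minus K.

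**Figure D5:**
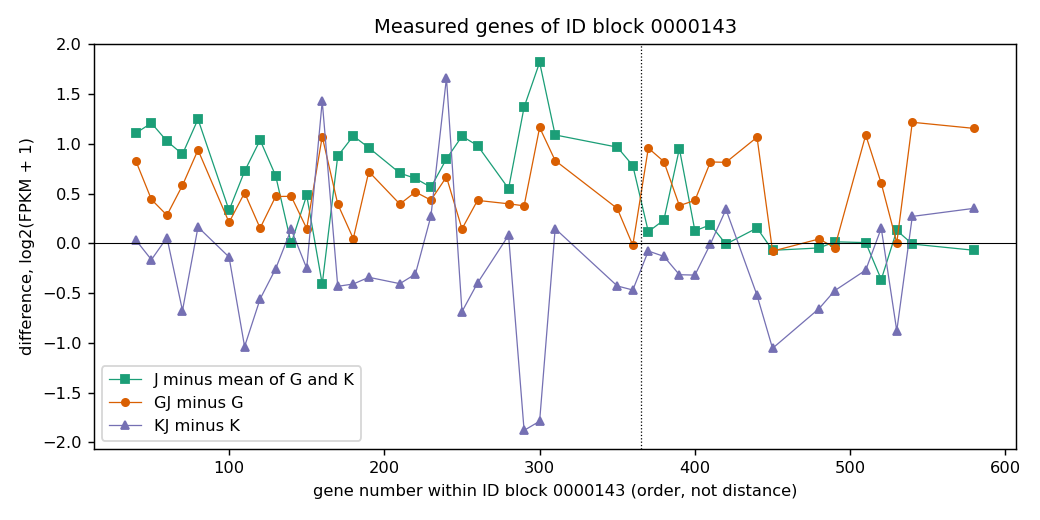
Differences of log2(FPKM + 1) (vertical axis) for the 42 tested genes of ID block Nitab4.5_0000143 in the order of their gene numbers (horizontal axis, not a distance). J minus the mean of G and K is mostly near 1 left of the dotted line and near 0 right of it, GJ minus G stays mostly above 0 throughout, and KJ minus K is mostly at or below 0.

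Block Nitab4.5_0001567 showed a run of neighbouring numbers near 0 in J. Nitab4.5_0001567g0090, g0100 and g0110 were members, and Nitab4.5_0001567g0120 lay just outside the limit, and all 4 were between 0 and 0.05 FPKM in every J library. Nitab4.5_0001567g0090 was at 1.18, 2.34 and 2.61 FPKM in GJ and 1.08, 1.04 and 1.59 in KJ, listed at 0 in J, and at 3.46, 1.97 and 2.80 in G and 2.89, 4.0 and 2.84 in K. Nitab4.5_0001567g0100 was at 4.26, 5.68 and 6.45 FPKM in GJ and 5.08, 3.50 and 3.85 in KJ, against 6.14, 4.45 and 5.26 in G and 4.77, 7.34 and 4.71 in K. The hybrids thus kept 74.5% of G in GJ and 38.1% of K in KJ for Nitab4.5_0001567g0090, and 103% and 73.9% for Nitab4.5_0001567g0100. After them Nitab4.5_0001567g0130 was listed at 0 in all 15 libraries, Nitab4.5_0001567g0140 was at 0.06 or less in each, and Nitab4.5_0001567g0150 was listed at 0 in J and at 0.48 to 0.90 in the other 12 libraries. The nearest numbers with transcripts in J were Nitab4.5_0001567g0080, at 1.76, 1.44 and 1.68 FPKM in J, and Nitab4.5_0001567g0160, at 8.96, 9.91 and 9.63.

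In block Nitab4.5_0001328 Nitab4.5_0001328g0050, g0070 and g0080 were between 0 and 0.08 FPKM in J, and the numbers g0040 and g0060 were listed at 0 in all 15 libraries. Nitab4.5_0001328g0050 was at 5.28, 4.10 and 3.43 FPKM in GJ and 1.61, 2.46 and 2.27 in KJ, against 8.09, 4.92 and 5.74 in G and 7.13, 7.94 and 5.59 in K. Nitab4.5_0001328g0070 was at 4.47, 2.41 and 2.19 FPKM in GJ and 1.14, 1.81 and 2.33 in KJ, against 6.12, 4.46 and 4.36 in G. In these 3 genes GJ kept 60.7% to 71.4% of G and KJ 30.7% to 34.9% of K, and the difference between the hybrids was called in 0 of them. In Nitab4.5_0001328g0050 and Nitab4.5_0001328g0080 every GJ library lay above every KJ library, so that KJ was the hybrid nearer J. Both are among the 3 of 59 genes lower in J with this order of the hybrids. The nearest preceding number with transcripts, Nitab4.5_0001328g0030, was at 47.93, 51.15 and 51.00 FPKM in GJ and 53.74, 50.10 and 51.97 in KJ, against 56.46, 59.01 and 53.66 in J, so the low level of J did not extend to it.

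Block Nitab4.5_0000525 held Nitab4.5_0000525g0010, g0030 and g0060. Nitab4.5_0000525g0030 was at 0.12, 0.16 and 0.17 FPKM in GJ and 0.40, 0.93 and 0.41 in KJ, against 0.18, 0.47 and 0.19 in J, 4.24, 7.99 and 7.16 in G and 2.74, 7.70 and 2.44 in K. It was thus low in both hybrids, at 2.32% of G in GJ and 13.5% of K in KJ, and of the 6 hybrid libraries only KJ replicate 2 was above 0.5 FPKM. Nitab4.5_0000525g0060 was at 0.32, 0.32 and 0.42 FPKM in GJ and 1.68, 3.43 and 2.75 in KJ, against 0.11, 0.24 and 0.21 in J. Nitab4.5_0000525g0010 was at 7.93, 12.94 and 15.10 FPKM in GJ and 6.27, 15.50 and 15.33 in KJ, against 6.03, 10.58 and 6.65 in J, so both hybrids overlapped J and lay below the mother, whose lowest library was 16.66 in G and 21.03 in K. The linear position of GJ was 0.645 and that of KJ 0.786 for Nitab4.5_0000525g0010, against 0.928 in GJ and 0.502 in KJ for Nitab4.5_0000525g0060. For Nitab4.5_0000525g0010 the hybrid means were alike, at 11.99 FPKM in GJ and 12.37 in KJ, against 7.75 in J. Its positions differ because the mothers do, with means of 19.68 in G and 29.34 in K. In block Nitab4.5_0009514, picked after its values were seen, 2 of 5 tested genes were members and every J library lay below every G and K library in 4 of the 5. The rule chose the members for this, so nothing is read from the count beside the 1.95% of all tested genes.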

How the data were processed

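RNA of 15 root libraries, 3 for each of 5 genotypes, was measured by the authors, who discarded reads under 25 nt and poor reads, aligned the rest to the K326 genome and quantified genes by RSEM. Their text gives Tophat2 as the aligner and the submitters' processing notes give HISAT2 and StringTie, versions not given in the sources used here. The deposited values are FPKM with 2 decimals. They hold no read numbers, so no count test was run. The study states the clean reads per sample as a range, but read numbers per gene and counting error are unknown.

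From the deposited FPKM, log2(FPKM + 1) was computed, with a pseudocount of 1, so differences of low genes are understated. Genes at 1 FPKM or more in at least 3 libraries were fitted in limma 3.58.1 (R 4.3.3, trend and robust options, all 15 libraries, no covariate) and tested two-sided with Benjamini-Hochberg adjustment over 37232 genes. The study's own test needs counts. The fit was tested on simulated data. Selection and plots used Python 3.11.15, NumPy 2.4.6, pandas 2.3.3 and matplotlib 3.10.9.

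The genes, lists and stretches were chosen with earlier results of these data known. Genes named are the 6 higher and 6 lower in J farthest from the nearer mother, up to 3 each way between the hybrids, 2 each way against each middle parent, the 3 most abundant, members of the leading ID blocks, those near 0 in all hybrids, and those at the limit. Others were picked after their values were seen. For the second place among blocks, 3 blocks were level and all are given. Alternatives were the pseudocount, filters, scalings, limma options, the replicate block, the hybrid libraries alone, the rule's settings and each library left out. Gene functions, positions and sequences are not used here, because no table at hand matches these IDs.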

Additional observations from a re-analysis of the deposited data

Results flagged for a closer look

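The departure of a hybrid from its middle parent was compared between GJ and KJ by an interaction term in limma with Benjamini-Hochberg adjustment over 37232 genes, and 10 of the 92 tested genes were called, against 0.344% of all tested genes higher and 0.164% lower in GJ. The father's mean cancels in this difference, the means of the mothers enter it, and the spread was estimated over all 15 libraries, so its p-values are not free of the values that chose the genes. In 5 genes higher in J the departure of GJ minus that of KJ was positive. It was 2.51 in Nitab4.5_0000143g0300 (adjusted p = 0.0392), 2.19 in Nitab4.5_0014353g0010 (0.000274), 2.14 in Nitab4.5_0000143g0290 (0.0216), 1.51 in Nitab4.5_0000662g0230 (0.00457) and 1.29 in Nitab4.5_0004810g0030 (0.00329). In 5 genes lower in J it was negative, with -2.77 in Nitab4.5_0005272g0010 (1.32e-07), -2.53 in Nitab4.5_0003586g0030 (0.0437), -2.26 in Nitab4.5_0009544g0010 (0.00224), -1.32 in Nitab4.5_0000073g0340 (0.0401) and -1.08 in Nitab4.5_0000401g0220 (0.00586). Nitab4.5_0000401g0220 was at 0.14, 0.32 and 0.24 FPKM in GJ and 1.80, 1.23 and 1.30 in KJ, against 0.37, 0.57 and 0.43 in J, 4.11, 3.8 and 3.14 in G and 3.27, 3.36 and 2.57 in K. GJ was below its father in every library, and KJ lay between its parents.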

How the results depend on the processing

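Calls between GJ and KJ (5 higher in J, 5 lower in J) became 3 and 3 with a mean of at least 5 FPKM and 9 and 10 with an unadjusted p, and 8 genes higher in J were called without G replicate 1, J replicate 2 and K replicate 2. With the hybrid libraries only they were 4 and 2. With the replicate block they were 4 and 4, since Nitab4.5_0006203g0020 (adjusted p = 0.0545) and Nitab4.5_0000073g0340 (0.0539) were lost. Same-numbered libraries correlated from -0.46 to 0.546, over 0.1 in 8 of 30 pairs, so the numbers do not pair them, and 2 of 6 hybrid libraries were closest to their own number. With a mean of at least 5 FPKM, which removes low genes, the calls were 10 in GJ against G toward J, 22 in GJ against J, 3 in GJ against the middle parent toward J, 7 in KJ against K toward J and 38 in KJ against J. KJ calls toward J against the middle parent, 1 in the report, were 3 with a pseudocount of 0.1, 2 with median-of-ratios scaling, 2 with quantile normalization and 3 without the 3 libraries named above. With each library left out in turn the calls ran from 3 to 7 (higher in J) and 3 to 5 (lower in J) between hybrids, 19 to 27 in GJ against G, 31 to 42 in GJ against J, 14 to 19 (away from J) and 6 to 9 (toward) in GJ against the middle parent, 12 to 17 in KJ against K, 55 to 61 in KJ against J, and 33 to 37 (away) and 1 to 2 (toward) in KJ against the middle parent.

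The rule gave 318 genes (200 lower in J) with a pseudocount of 0.1, 19 (16 lower) with a distance of 2, 250 (131 lower) without the 3 libraries, and 96 to 193 (62 to 110 lower) without each parental library in turn. The median position on the log2 scale became 0.0892 (GJ, higher in J), 0.539 (GJ, lower) and 0.376 (KJ, lower) on linear FPKM, 0.23 (GJ, higher) and 0.14 (KJ, lower) with median-of-ratios scaling, and 0.506 (GJ, lower) and 0.21 (KJ, lower) with both. The cause of these shifts was not tested. For the single genes tested against alternatives, 411 values kept their call, 27 lost it and 0 changed direction. The number of reads behind a near-zero value could not be stated.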
